A study of Mus musculus with 24 samples.

Results

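Integrins and focal adhesion genes were followed in optogenetic C2C12 muscle. The 40 genes were chosen by name from the 56941 genes listed, as the 18 alpha and 8 beta integrin subunits together with 14 intracellular genes of the adhesion complex (Tln1, Tln2, Vcl, Zyx, Tns1, Ilk, Lims1, Lims2, Parva, Parvb, Fermt2, Ptk2, Pxn and Itgb1bp2). C2C12 is an established line of mouse myoblasts that fuse into myotubes able to contract. The line used carried ChR2::tdTomato, a blue light-gated cation channel fused to a red fluorescent protein, in all groups, the controls included. Aligned monolayers on fibrin gels were left unstimulated (Control) or trained with pulsed light at 1, 4 or 10 Hz for 60 min a day, and bulk RNA was sequenced from 6 biological replicates of each group, 24 libraries in all. The comparison asks how the stimulation frequency relates to the mRNA levels of the cell-matrix adhesion machinery. All groups came from 1 engineered line and the tissues also twitched spontaneously, and the design does not separate light from contraction, so these cannot be told apart here.

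Integrins are pairs of an alpha and a beta chain that bind matrix proteins such as laminin, fibronectin and vitronectin outside the cell. Talin and kindlin switch the beta tail to its active state, and vinculin, zyxin and tensin tie it to actin. The ILK-PINCH-parvin complex and the FAK-paxillin pair pass the signal inward. In skeletal muscle, the alpha7 beta1 integrin holds the fibre to its basement membrane at costameres and at the junction with the tendon.

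The tissue carried the markers of its label. All 14 myotube markers were at 1 TPM or more on average in every group, with a sum of 13059 to 21434 TPM per library, whereas the 5 endothelial markers added up to less than 1 TPM in each library (0 to 0.961). The 9 markers of undifferentiated myoblasts and cycling cells added up to 80.0 to 150 TPM. Of the 8 tested, 2 were higher (25.0%) and 1 lower (12.5%) at 1 Hz, beside 19.2% and 18.1% of all genes. At 4 Hz 2 were higher (25.0%) and 3 lower (37.5%), beside 27.5% and 23.9%. Depth ran from 8052369 to 18159144 estimated counts per library. Libraries also differed in how levels varied with transcript length: the Spearman correlation between transcript length and a gene's deviation from its mean ran from -0.03 to 0.37 among the 6 controls, while the 1 Hz libraries ran from -0.49 to 0.33, the 4 Hz libraries from -0.42 to 0.05 and the 10 Hz libraries from -0.22 to 0.41. The TMM scaling factor was under 0.95 in 4 libraries (1 Hz replicates 4 and 6, 4 Hz replicates 3 and 4), and the calls that changed without them are given below. Ribosomal protein genes took 5.16% to 5.95% of counts in the controls, 5.29% to 8.44% at 1 Hz, 6.22% to 8.66% at 4 Hz (no overlap with the controls) and 5.04% to 6.30% at 10 Hz, and mitochondrial genes took at most 2.72%, 4.87%, 8.90% and 2.56%. The part of these differences in the 1 and 4 Hz results was not tested beyond the alternatives given. The comparisons with the unstimulated tissues all share the same 6 controls, so they are not independent of each other. Levels are relative to the RNA of each library, made from a whole tissue, so fewer cells of a type and less RNA per cell cannot be told apart.

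Of the 40 genes, 33 had enough counts to be tested. The 7 others were Itgae, Itga2, Itga8, Itgam, Itgax, Itgal and Itgad, most of them leukocyte subunits, with 2 to 123 counts over all 24 libraries. Levels between genes were compared in TPM, which is per transcript length. The beta1 chain Itgb1 came first with a mean of 474 TPM, followed by the laminin receptor chain Itga7 at 325 TPM, the kindlin Fermt2 at 225 TPM, Zyx at 215 TPM and Vcl at 105 TPM. Itga7 and the fibronectin receptor chain Itga5 (mean 96.5 TPM) did not overlap in any group.

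Itga7 alone made up 57.9% to 63.7% of the summed alpha-chain TPM in the controls (median 62.3%) and Itga5 made up 16.3% to 20.0%. Itga6, a second laminin receptor chain, held 8.45% to 11.8%. Among beta chains, Itgb1 held 84.5% to 87.4% in the controls and Itgb5, a vitronectin receptor chain, held 9.64% to 11.7%. Itgb3, which pairs with alphaV to bind vitronectin and fibrin, held only 1.18% to 1.48%. The repertoire was thus led by the alpha7 and beta1 genes in every control, and Itgb3 was a minor chain in all of them.

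**Figure D1:**
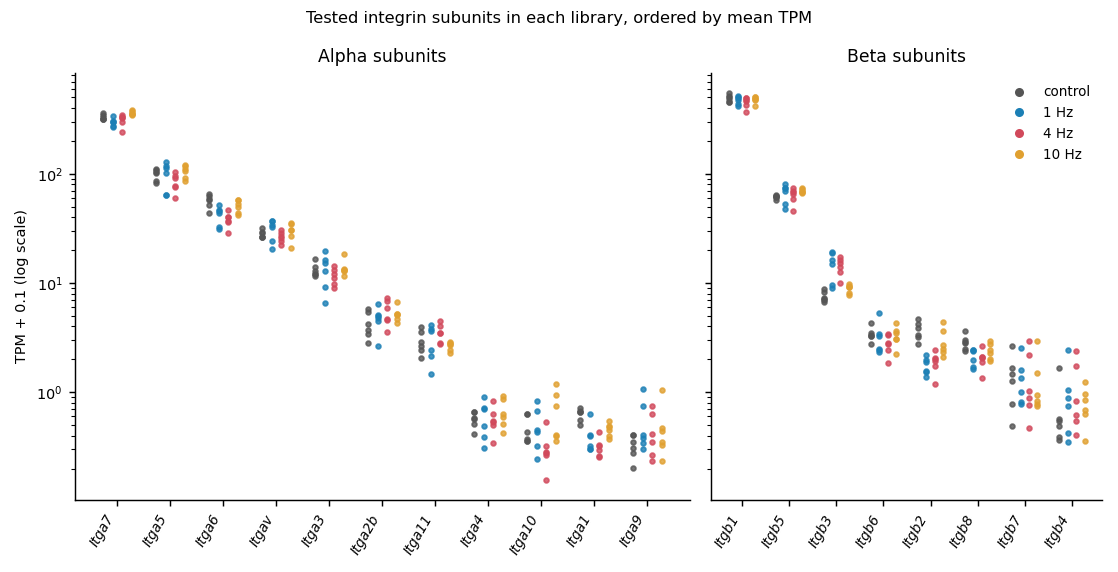
TPM + 0.1 on a log axis for the 11 tested alpha subunits (left) and the 8 tested beta subunits (right), 1 point per library, coloured by group and ordered by mean TPM. Itga7 (mean 325 TPM) and Itgb1 (mean 474 TPM) lie above the other chains, and Itgb3 at 1 and 4 Hz lies above its controls.

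At 1 Hz, 5 of the 33 tested genes rose (Itgb3, Lims2, Lims1, Itgb5 and Fermt2) and 6 fell (Itgb2, Ptk2, Pxn, Itgb8, Itga6 and Tns1) at an edgeR adjusted p under 0.05. Over all 13315 genes tested, 19.2% rose and 18.1% fell, so the share of adhesion genes called (15.2% and 18.2%) was close to the background. At 4 Hz, 9 rose (the same 5 plus Itga11, Itga2b, Itga7 and Itgb1) and 5 fell (Ptk2, Tns1, Pxn, Itgb2 and Itga6), or 27.3% and 15.2%, beside 27.5% and 23.9% of all genes. At 10 Hz none of the 33 was called by edgeR, by DESeq2 or by limma, 4 had an unadjusted p under 0.05 (Itgb5, Zyx, Itgb3 and Itgb8), and 0.0150% and 0.0225% of all genes were called higher and lower. The median log2 fold change of the 33 genes was 0.10, 0.12 and 0.07 at 1, 4 and 10 Hz, beside 0.04, 0.06 and 0.01 for all genes. On log2(TPM + 1), for the 28 genes tested there, it was -0.09 and -0.20 at 1 and 4 Hz, beside -0.14 and -0.21 for all genes.

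Most of these changes were small. With an absolute log2 fold change over 0.5 as well, 1 gene rose and 1 fell at 1 Hz, where 7.19% and 7.74% of all genes did, and 3 rose and 3 fell at 4 Hz, where 12.8% and 12.3% did. All 6 libraries lay outside the control range for 6 genes at 1 Hz (14.1% of all genes), for 6 at 4 Hz (27.6%) and for Itgb5 alone at 10 Hz (1.64%). The number of genes that fell at 1 Hz was 3 without Control replicate 2 or 5, without 1 Hz replicate 3, 4 or 6, or without 10 Hz replicate 2, each left out alone, beside 15.2% to 18.1% of all genes in those fits. Without the 4 libraries of low TMM factor, 9 of the 33 rose and 3 fell at 1 Hz, beside 15.7% and 16.3% of all genes, and 7 rose and 6 fell at 4 Hz, beside 22.4% and 23.5%. The genes gained were Zyx, Itga5, Itgav and Itga3 among the higher at 1 Hz and Ilk among the lower at 4 Hz, while Tns1, Itga6 and Itgb8 at 1 Hz and Itga7 and Itga2b at 4 Hz were lost.

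**Figure D2:**
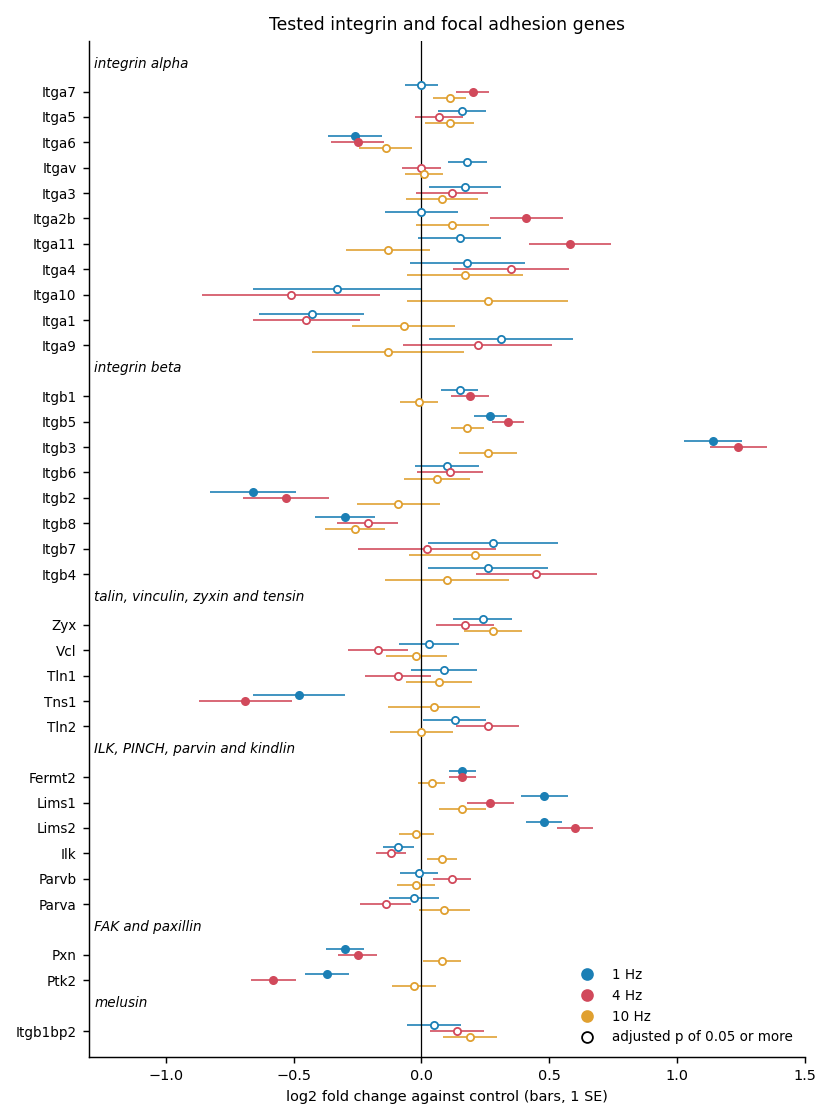
Log2 fold change against control of the 33 tested genes, grouped by role and ordered by mean TPM within each role, with bars of 1 SE; filled points have an edgeR adjusted p under 0.05. Itgb3 at 1 and 4 Hz stands at 1.14 and 1.24, apart from the other genes, and no point at 10 Hz is filled.

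The promoters of 3 genes, picked after their values were seen, are shown because all 6 libraries at 4 Hz lay on 1 side of the controls with a log2 fold change beyond 0.5 in size, above for Itgb3 and below for Ptk2 and Tns1. Lims2 met the same description, and its window is not printed. Each runs from 250 bases before to 50 bases after the start of the canonical transcript, 5′ to 3′ on the gene's strand, in GRCm39. Capitals mark E-boxes, the CANNTG motif bound by MyoD and its relatives, which reads the same on both strands. The windows are chr11:104498576-104498875 (plus strand), chr15:73295062-73295361 (minus strand) and chr1:74130790-74131089 (minus strand). The annotated Tns1 gene extends upstream of its window, to chr1:74163731, so the start of its canonical transcript lies inside the gene. Which start was used in these tissues was not tested.
Itgb3: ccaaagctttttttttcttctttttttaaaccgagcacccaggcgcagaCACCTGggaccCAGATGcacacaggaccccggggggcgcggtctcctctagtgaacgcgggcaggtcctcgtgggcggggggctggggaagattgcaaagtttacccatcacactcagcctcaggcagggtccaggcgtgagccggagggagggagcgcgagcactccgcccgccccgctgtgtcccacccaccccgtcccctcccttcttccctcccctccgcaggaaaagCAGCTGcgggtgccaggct
Ptk2: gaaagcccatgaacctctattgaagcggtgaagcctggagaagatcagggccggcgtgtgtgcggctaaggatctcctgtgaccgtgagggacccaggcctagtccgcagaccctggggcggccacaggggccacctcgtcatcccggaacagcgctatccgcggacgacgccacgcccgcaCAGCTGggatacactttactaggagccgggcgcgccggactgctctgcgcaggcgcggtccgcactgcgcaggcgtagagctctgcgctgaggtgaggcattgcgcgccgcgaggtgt
Tns1: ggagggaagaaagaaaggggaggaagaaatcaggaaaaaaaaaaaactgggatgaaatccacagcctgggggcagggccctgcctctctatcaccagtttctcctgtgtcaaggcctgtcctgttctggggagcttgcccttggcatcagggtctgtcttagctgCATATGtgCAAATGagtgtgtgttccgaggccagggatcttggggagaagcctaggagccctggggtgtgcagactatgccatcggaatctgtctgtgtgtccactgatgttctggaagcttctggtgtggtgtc

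The script found 3 E-boxes for Itgb3, 1 for Ptk2 and 2 for Tns1, and these 3 windows held neither the MCAT letters CATTCC on either strand nor a CArG box, the serum response factor motif. The Lims2 window held 1 E-box, 1 MCAT match and no CArG box. Over the adhesion genes, 29 of 40 windows (72.5%) held an E-box, beside 70.6% of 21654 protein-coding genes. MCAT was found in 5 of 40 (12.5%, beside 14%), in Vcl, Lims2, Itgb8, Itga7 and Itga10, and the CArG box in 2 of 40 (5%, beside 1.55%), in Vcl and Itgb6. These are matches of letters only.

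Among the beta chains, Itgb3 (ENSMUSG00000020689, chr11:104498826-104561302) was at 2.21 and 2.37 times its control level at 1 and 4 Hz on TMM-scaled counts. Scaled by TMM, it measured 24.1 to 33.4 CPM in the controls (median 26.6), 46.6 to 78.3 at 1 Hz (median 59.4), 56.2 to 73.8 at 4 Hz (median 67.0) and 29.3 to 37.4 at 10 Hz (median 32.8). Every library at 1 and 4 Hz was above every control, while 10 Hz overlapped the controls. Against the controls it was 1.14 on the log2 scale (SE 0.113, adjusted p = 3.9e-08) at 1 Hz and 1.24 (SE 0.113, adjusted p = 6.3e-09) at 4 Hz. At 10 Hz it was 0.26 (SE 0.114, adjusted p = 0.55, 95% interval 0.02 to 0.50). The rise was called without each library in turn and under every other scaling tried, with 0.84 at both frequencies on log2(TPM + 1) (adjusted p = 5.1e-04 and 1.6e-04).

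Relative to its own family, Itgb3 moved in the same way. Its share of beta-chain TPM was 1.77% to 3.28% at 1 Hz and 2.04% to 3.07% at 4 Hz, beside at most 1.48% in the controls and 1.42% to 1.63% at 10 Hz. The median ratio of Itgb3 to Itgb1 in TPM was 0.0149 for the controls and 0.0309, 0.0327 and 0.0185 for 1, 4 and 10 Hz. At its highest Itgb3 still held 0.0405 of the Itgb1 level. Itgav, a partner chain of Itgb3, was not called at any frequency, with log2 fold changes of 0.18, 0.00 and 0.01. Without the 4 libraries of low TMM factor, though, Itgav was at 0.22 at 1 Hz (adjusted p = 0.014).

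Itgb5, the other vitronectin-binding beta chain, rose less. It ranged from 95.5 to 108 CPM in the controls (median 105), from 110 to 142 at 1 Hz (median 125), from 118 to 143 at 4 Hz (median 134) and from 114 to 125 at 10 Hz (median 117). No library of any frequency fell within the control range, and the 3 frequencies overlapped each other. The log2 fold change was 0.27 (SE 0.0628, adjusted p = 0.0015) at 1 Hz, 0.34 (SE 0.0629, adjusted p = 8.0e-05) at 4 Hz and 0.18 (SE 0.0628, adjusted p = 0.42) at 10 Hz. Itgb5 was not called on log2(TPM + 1), where it was 0.09 and 0.03 at 1 and 4 Hz, against a median of all genes of -0.14 and -0.21 on that scale.

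Itgb1, the common partner of the muscle alpha chains, changed little. Its range was 777 to 1008 CPM in the controls (median 905), 911 to 1095 at 1 Hz (median 1003), 855 to 1175 at 4 Hz (median 1029) and 880 to 918 at 10 Hz (median 898). The groups overlapped, with 5 of 6 libraries at 4 Hz above all controls. It was called only at 4 Hz, at a log2 fold change of 0.19 (SE 0.0731, adjusted p = 0.035), and on log2(TPM + 1) the sign turned to -0.12 (0.09 above the median of all genes). The call was lost with the size factors of DESeq2 (adjusted p = 0.064), its Wald test (0.058), the replicate block (0.051), a fit of only the 2 groups (0.11) and no filter (0.23). With TPM times the TMM factor (0.13) and with the length offset (0.051) it was lost as well. Removal of the length trend added a call at 1 Hz (0.21, adjusted p = 0.026). The 4 Hz call was also lost without Control replicate 1, 3, 4 or 5 or 4 Hz replicate 1, 3 or 5 (adjusted p 0.071 to 0.19).

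Itgb2, the chain of leukocyte integrins, fell from a low level. It held 4.31 to 6.75 CPM in the controls (median 5.73), 2.66 to 4.88 at 1 Hz (median 3.47), 3.06 to 4.32 at 4 Hz (median 3.99) and 4.00 to 7.53 at 10 Hz (median 4.89). In each of the 1 and 4 Hz groups, 5 of 6 libraries were below all controls. Relative to the controls it was at -0.66 on the log2 scale (SE 0.168, adjusted p = 0.0032) at 1 Hz and -0.53 (SE 0.170, adjusted p = 0.011) at 4 Hz, and it was called under every other setting, with values down to -1.07 and -0.96 on log2(TPM + 0.1). The 6 controls held 447 counts of it together and the 6 libraries at 1 Hz 247. Ptprc, the pan-leukocyte marker, was listed at 0 in 22 of 24 libraries and Adgre1, a macrophage marker, in 23. Cd68, a lysosomal protein gene also used as a macrophage marker, was at 55.1 to 102 TPM. The 11 leukocyte and platelet markers, Itgb2 and Itgam among them, summed to 78.8 to 107 TPM in the controls, 57.7 to 89.2 at 1 Hz, 58.5 to 96.8 at 4 Hz and 64.7 to 83.4 at 10 Hz, and their part in the result was not tested.

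Itgb8, a chain that binds latent TGF-beta, was called lower only at 1 Hz (log2 fold change -0.30, SE 0.118, adjusted p = 0.045). It ranged from 12.4 to 19.3 CPM in the controls (median 14.7) and from 11.1 to 13.1 at 1 Hz (median 12.2), with 4 of 6 libraries below all controls. Its values at the other frequencies were of like size, -0.21 at 4 Hz (SE 0.119, adjusted p = 0.13) and -0.26 at 10 Hz (SE 0.119, adjusted p = 0.58), and at 10 Hz 4 of 6 libraries were also below all controls. The 1 Hz call was lost without Control replicate 2, 4, 5 or 6 or 1 Hz replicate 3, 4, 5 or 6 (adjusted p 0.054 to 0.14), with the length trend removed (-0.19, adjusted p = 0.15), with the replicate block (0.067), and at -0.28 without the 4 libraries of low TMM factor (adjusted p = 0.067). It was also lost with no filter (0.051), TPM times the TMM factor (0.11) and the length offset (0.067). On log2(TPM + 0.1) (0.054) and on log2(TPM + 1) without a filter (0.085) it was lost too. On log2(TPM + 1) with the filter, Itgb8 was called at 4 Hz as well (-0.37, adjusted p = 0.017). The epithelial chains Itgb4 and Itgb6 and the lymphocyte chain Itgb7 were not called, at means of 0.781, 3.07 and 1.25 TPM.

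**Figure D3:**
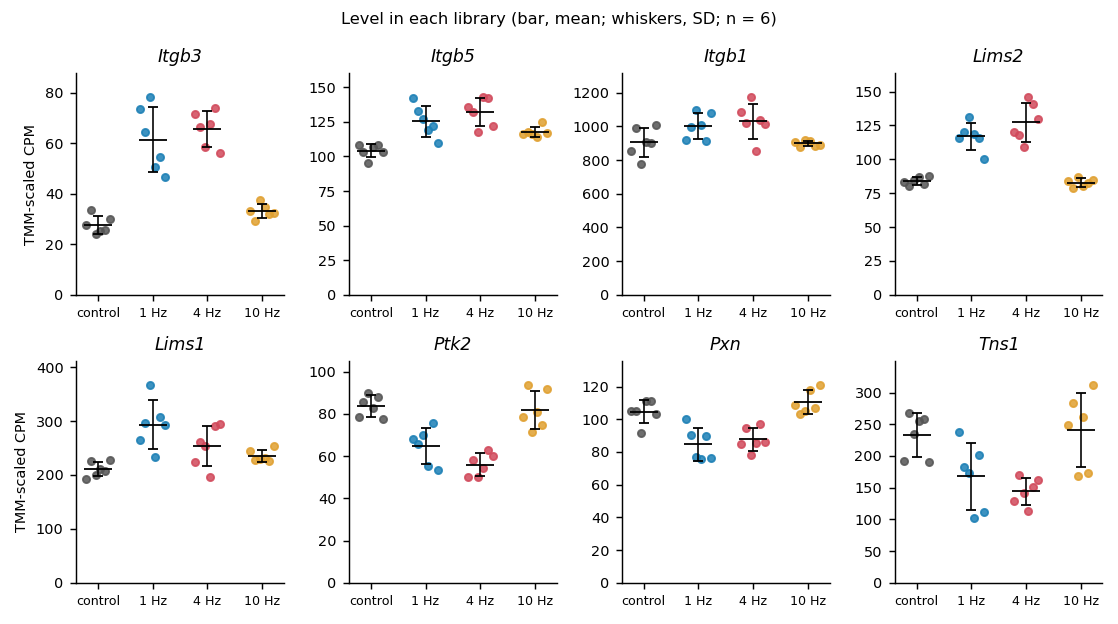
TMM-scaled CPM in each of the 24 libraries for 8 genes, 6 points per group, with the mean and SD. Itgb3 and Lims2 at 1 and 4 Hz lie above all controls and Ptk2 below all controls, while 10 Hz overlaps the controls in 7 of the 8 panels, all but Itgb5.

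Of the 11 tested alpha chains, 0 rose and 1 fell (9.09%) at 1 Hz, beside 19.2% and 18.1% of all genes, and 3 rose (27.3%) and 1 fell at 4 Hz, beside 27.5% and 23.9%. Itga7 measured 623 to 751 CPM in the controls (median 715), 606 to 781 at 1 Hz (median 704), 741 to 896 at 4 Hz (median 799) and 720 to 811 at 10 Hz (median 746). Of the 6 libraries at 4 Hz, 5 were above all controls, while 1 Hz spanned the control range. Its log2 fold change was 0.00 (SE 0.0656) at 1 Hz and 0.20 (SE 0.0657, adjusted p = 0.015) at 4 Hz, where log2(TPM + 1) gave the opposite sign, -0.11 (0.10 above the median of all genes). Its adjusted p at 4 Hz was 0.17 without a filter on low counts, 0.1 with TPM times the TMM factor and 0.057 with the length offset. It was 0.068 without Control replicate 3, 0.053 without 4 Hz replicate 4 and 0.071 without the 4 libraries of low TMM factor.

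Itga11, a collagen receptor chain of mesenchymal cells, rose at 4 Hz. Its range was 5.86 to 12.7 CPM in the controls (median 8.50), 6.18 to 13.3 at 1 Hz (median 10.3), 10.8 to 15.4 at 4 Hz (median 13.8) and 6.89 to 9.28 at 10 Hz (median 8.35). All but 1 of the 4 Hz libraries were above every control. It stood at 0.58 on the log2 scale (SE 0.160, adjusted p = 0.0039) at 4 Hz and 0.15 (SE 0.162, adjusted p = 0.49) at 1 Hz. On log2(TPM + 1) the 4 Hz value was 0.22 (adjusted p = 0.30) and the 1 Hz value turned to -0.02. The 5 fibroblast markers summed to 120 to 177 TPM in the controls, 117 to 256 TPM at 1 Hz and 140 to 225 TPM at 4 Hz. Most of this sum was Dcn, at 110 to 246 TPM over all libraries. Pdgfra, Dpt and Lum had medians of 4.34, 3.54 and 0.646 TPM, and Thy1 was listed at 0 in 20 of 24 libraries. Of the 4 markers tested, 2 (50.0%) were higher at 1 Hz and 2 at 4 Hz, beside 19.2% and 27.5% of all genes. The part of these markers in the result was not tested.

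Itga2b, the platelet chain, was called higher at 4 Hz, with 4.55 to 7.01 CPM in the controls (median 5.31) and 5.19 to 9.35 at 4 Hz (median 7.63), and 4 of 6 libraries above all controls. Its log2 fold change was 0.41 (SE 0.142, adjusted p = 0.018). That call ended when 4 Hz replicate 4 was left out (adjusted p = 0.087), without a filter (0.068), on log2(TPM + 1) (0.15) and, at 0.27, without the 4 libraries of low TMM factor (adjusted p = 0.14). The highest value, 0.71, came with the length offset. Of the 3 platelet markers, Pf4 was listed at 0 in 23 of 24 libraries, Ppbp had a median of 0.255 TPM and Gp1bb had a median of 0.932 TPM, and their part in the result was not tested.

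Itga6 fell slightly at both frequencies, by 0.26 on the log2 scale at 1 Hz (SE 0.104, adjusted p = 0.049) and by 0.25 at 4 Hz (SE 0.105, adjusted p = 0.048). It ranged from 89.1 to 147 CPM in the controls (median 125), from 87.9 to 115 at 1 Hz (median 103), from 78.7 to 124 at 4 Hz (median 102) and from 97.7 to 125 at 10 Hz (median 111), and only 1 library of each of the 1 and 4 Hz groups was below all controls. Both calls were close to the threshold. The 1 Hz call was lost without Control replicate 2, 4, 5 or 6 or any of 1 Hz replicates 2 to 6 (adjusted p 0.051 to 0.14), and the 4 Hz call without Control replicate 2, 4, 5 or 6 or 4 Hz replicate 1, 4, 5 or 6 (adjusted p 0.055 to 0.14). On log2(TPM + 1) it was lower, at -0.43 (adjusted p = 0.019) and -0.56 (adjusted p = 0.0016), or -0.29 and -0.35 relative to the median of all genes. The replicate block gave an adjusted p of 0.063 and 0.059, and removal of the length trend 0.070 and 0.11. At 1 Hz it was -0.20 without the 4 libraries of low TMM factor (adjusted p = 0.13).

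Itga5 was not called at any frequency. It ranged from 237 to 312 CPM in the controls, 246 to 371 at 1 Hz, 262 to 317 at 4 Hz and 255 to 333 at 10 Hz, and its log2 fold changes were 0.16, 0.07 and 0.11 (SE 0.0942 each, adjusted p = 0.18, 0.53 and 0.86). At 1 Hz, leaving out the 4 libraries of low TMM factor gave 0.29 (adjusted p = 0.011) and removing the length trend 0.20 (adjusted p = 0.047), while log2(TPM + 1) turned the 1 and 4 Hz values to -0.06 and -0.25. The other tested alpha chains, Itga1, Itga3, Itga4, Itga9, Itga10 and Itgav, were not called with all libraries, though Itga3 at 1 Hz was at 0.35 without those 4 libraries (adjusted p = 0.035), and all but Itga3 and Itgav had means under 1 TPM.

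In the ILK-PINCH-parvin-kindlin class, 3 of 6 genes rose at 1 Hz and at 4 Hz, where 19.2% and 27.5% of all genes did, and none fell. Both PINCH genes were among them. Lims2 (ENSMUSG00000024395), PINCH2, measured 80.4 to 88.0 CPM in the controls (median 83.8), 100 to 131 at 1 Hz (median 118), 109 to 146 at 4 Hz (median 125) and 78.7 to 87.0 at 10 Hz (median 83.2). Every library at 1 and 4 Hz was above every control and above every library at 10 Hz. Its log2 fold change was 0.48 (SE 0.0691, adjusted p = 9.1e-06) at 1 Hz, 0.60 (SE 0.0692, adjusted p = 1.9e-07) at 4 Hz and -0.02 (SE 0.0694, 95% interval -0.17 to 0.12) at 10 Hz. On log2(TPM + 1) it was 0.24 and 0.25 at 1 and 4 Hz and not called (adjusted p = 0.14 and 0.11).

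Lims1 (ENSMUSG00000019920, chr10:58159231-58260527), PINCH1, measured 193 to 227 CPM in the controls (median 210), 233 to 367 at 1 Hz (median 294), 197 to 294 at 4 Hz (median 258) and 226 to 253 at 10 Hz (median 230). The 1 Hz libraries were all above the controls, and 4 of 6 were at 4 Hz. It rose at 1 Hz (log2 fold change 0.48, SE 0.0925, adjusted p = 2.8e-04) and, on the count scale, at 4 Hz (0.27, SE 0.0925, adjusted p = 0.018), where log2(TPM + 1) gave -0.09 (0.12 above the median of all genes). On log2(TPM + 1) the 1 Hz value was 0.21 (adjusted p = 0.30). The 4 Hz call was lost without a filter (adjusted p = 0.079), and without Control replicate 3 (adjusted p = 0.055) or 4 Hz replicate 3 (0.054), 5 (0.073) or 6 (0.053). With TPM times the TMM factor (0.17, adjusted p = 0.19) and with the length offset (0.23, adjusted p = 0.068) it was lost too. The ratio of Lims2 to Lims1 in TPM was 0.824 to 0.989 in the controls, 0.777 to 1.15 at 1 Hz, 0.979 to 1.72 at 4 Hz and 0.778 to 0.902 at 10 Hz, so the PINCH genes were of like abundance.

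Fermt2, kindlin-2, the integrin activator of muscle, was higher by a log2 fold change of 0.16 at both 1 Hz (SE 0.0535, adjusted p = 0.019) and 4 Hz (SE 0.0536, adjusted p = 0.013), but on log2(TPM + 1) it was -0.08 and -0.16, and without a filter on low counts neither call held (adjusted p = 0.26 and 0.28). It ranged from 357 to 383 CPM in the controls (median 380), 397 to 472 at 1 Hz (median 413) and 391 to 448 at 4 Hz (median 415), without overlap. The 1 Hz call was lost without Control replicate 4 (adjusted p = 0.052) or 1 Hz replicate 5 (0.055) and the 4 Hz call without 4 Hz replicate 5 (0.069). Both calls were lost with TPM times the TMM factor (adjusted p = 0.28 and 0.13) and with only the 2 groups (0.054 and 0.055). With the length offset the 1 Hz call was lost (0.11). Ilk, the scaffold of the complex, and the parvins Parva and Parvb, which link it to actin, were not called against the controls. Their log2 fold changes lay between -0.14 and 0.12. Without the 4 libraries of low TMM factor, Ilk was at -0.19 at 4 Hz (adjusted p = 0.018).

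FAK and paxillin both fell at 1 and 4 Hz, where 18.1% and 23.9% of all genes fell. Ptk2 (ENSMUSG00000022607, chr15:73076832-73295129), which encodes FAK, the tyrosine kinase that integrin clustering activates, measured 77.6 to 90.1 CPM in the controls (median 84.4), 53.4 to 75.5 at 1 Hz (median 67.0), 50.0 to 62.9 at 4 Hz (median 56.2) and 71.2 to 93.7 at 10 Hz (median 79.7). Every library at 1 and 4 Hz was below every control. Its log2 fold change was -0.37 (SE 0.0871, adjusted p = 0.0016) at 1 Hz and -0.58 (SE 0.0878, adjusted p = 7.4e-06) at 4 Hz, or 0.772 and 0.668 of the control level, and -0.03 (SE 0.0867, 95% interval -0.22 to 0.15) at 10 Hz. The lowest values at 1 Hz came from replicates 4 and 6 (55.3 and 53.4 CPM), where long transcripts were also low. With the length trend of each library removed, Ptk2 was at -0.33 (adjusted p = 6.2e-04) and -0.51 (adjusted p = 1.7e-06). The 1 Hz value was under the fold threshold of 0.5, and its call was lost on log2(TPM + 1) without a filter (-0.47, adjusted p = 0.076). Ptk2, Tns1, Lims1, Lims2, Itga6, Itga7, Itga11, Itga2b and Ilk each share exon positions with at least 1 gene of the opposite strand. Reads of such a pair are told apart only if strand was used in counting (the kit was directional).

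Pxn (ENSMUSG00000029528, chr5:115644691-115694047), the paxillin adaptor, ranged from 91.9 to 111 CPM in the controls (median 105), 75.4 to 100 at 1 Hz (median 83.2), 78.4 to 97.4 at 4 Hz (median 85.8) and 103 to 121 at 10 Hz (median 108). In the 1 Hz group 5 of 6 libraries, and in the 4 Hz group 4 of 6, were below all controls. It stood at -0.30 on the log2 scale (SE 0.0751, adjusted p = 0.0028) at 1 Hz, -0.25 (SE 0.0753, adjusted p = 0.0073) at 4 Hz and 0.08 (SE 0.0749, adjusted p = 0.88) at 10 Hz. Both values were under the fold threshold of 0.5, whereas log2(TPM + 1) gave -0.53 and -0.57, or -0.38 and -0.36 relative to the median of all genes there. The calls held under the other tests, filters and scalings and without each library.

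Of the 5 genes of the talin, vinculin, zyxin and tensin class, 1 (20.0%) fell at 1 Hz and at 4 Hz, beside 18.1% and 23.9% of all genes, and it was Tns1 at both. Tns1 (ENSMUSG00000055322, chr1:73949390-74163731), a tensin of fibrillar adhesions, measured 191 to 267 CPM in the controls (median 244), 102 to 237 at 1 Hz (median 177), 113 to 170 at 4 Hz (median 146) and 169 to 312 at 10 Hz (median 255). All 6 libraries at 4 Hz, and 4 of 6 at 1 Hz, were below all controls. It fell by 0.69 on the log2 scale at 4 Hz (SE 0.182, adjusted p = 0.0032) and by 0.48 at 1 Hz (SE 0.181, adjusted p = 0.043). The 1 Hz call was lost without Control replicate 2, 3, 4 or 5 or 1 Hz replicate 2, 3, 4 or 6 (adjusted p 0.051 to 0.097), and at -0.23 without the 4 libraries of low TMM factor (adjusted p = 0.27). At 1 Hz the adjusted p was 0.053 with the replicate block, 0.07 with only the 2 groups and 0.07 on log2(TPM + 1). It was 0.095 without a filter and 0.14 with the length offset (-0.44). At 4 Hz the adjusted p was 0.056 with TPM times the TMM factor, 0.057 with the length offset and 0.059 on log2(TPM + 1) without a filter. The canonical transcript has 10255 bases, beside a median of 3262 over the genes tested, and with the length trend removed Tns1 was at -0.42 (adjusted p = 0.0044) and -0.56 (adjusted p = 2.2e-04).

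Talin and vinculin, the core mechanical link, were not called in any comparison with the controls. Tln1, the more abundant talin, had log2 fold changes of 0.09, -0.09 and 0.07 (SE 0.129 each), and Tln2, the muscle-enriched talin, of 0.13, 0.26 and 0.00 (SE 0.123 each). The Tln1 to Tln2 ratio in TPM stayed between 5.67 and 9.99 in all groups. Vcl had 0.03, -0.17 and -0.02 (SE 0.118 each). Zyx, a stretch-sensitive LIM protein gene, had 0.24, 0.17 and 0.28 (SE 0.115 each, adjusted p = 0.10, 0.21 and 0.53), with 4, 4 and 5 of 6 libraries above all controls, and at 1 Hz it was at 0.41 without the 4 libraries of low TMM factor (adjusted p = 7.9e-04). Itgb1bp2, which encodes melusin, the muscle-specific beta1 binding protein, had 0.05, 0.14 and 0.19 (SE 0.105 each).

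The frequencies were also compared with each other. At 10 Hz against 1 Hz, 5 of the 33 genes were higher (Pxn, Ptk2, Itgb2, Tns1 and Ilk) and 3 lower (Itgb3, Lims2 and Lims1), beside 14.8% and 13.1% of all genes. Against 4 Hz, 5 were higher (Ptk2, Pxn, Tns1, Ilk and Itgb2) and 5 lower (Lims2, Itgb3, Itga11, Itgb1 and Itgb5), beside 21.9% and 24.4%. In the same comparison 9 of the 14 myotube markers were lower (64.3%, median -0.41) and 1 higher, and their part in these results was not tested. Between 4 and 1 Hz none was called by edgeR or by any other test run, as for all genes (0%), though 6 had an unadjusted p under 0.05 (Itga7, Itga2b, Itga11, Ptk2, Itgav and Lims1). The 10 Hz libraries are shared by the first 2 of these comparisons. The count at 10 Hz against 1 Hz fell from 8 to 5 without 10 Hz replicate 6. The share of all genes called in that fit is not given here, so the fall cannot be read as particular to the adhesion genes. Without the 4 libraries of low TMM factor, Ptk2, Tns1 and Ilk were no longer called at 10 Hz against 1 Hz (adjusted p = 0.058, 0.24 and 0.086), nor Itgb2 against 4 Hz (0.090), while Itgav, Fermt2 and Itgb5 were added as lower than at 1 Hz, and Fermt2 as lower and Parva as higher than at 4 Hz.

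Itgb3 was 0.88 lower on the log2 scale at 10 Hz than at 1 Hz (-0.88, SE 0.113, adjusted p = 3.7e-06) and 0.98 lower than at 4 Hz (-0.98, SE 0.113, adjusted p = 3.0e-07), with all 6 libraries at 10 Hz below every library at 1 and 4 Hz. Lims2 was at -0.50 and -0.62 (adjusted p = 1.2e-05 and 2.2e-07), also without overlap. Ptk2 was at 0.34 (adjusted p = 0.0054) and 0.55 (adjusted p = 2.6e-05), and Pxn at 0.38 (adjusted p = 5.5e-04) and 0.33 (adjusted p = 0.0011). Ilk, which was not called against the controls, was at 0.17 (adjusted p = 0.032) and 0.19 (adjusted p = 0.0096).

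The scale of the values moved several of these calls. On log2(TPM + 1) with limma, all genes had medians of -0.14, -0.21 and -0.01 for 1, 4 and 10 Hz, and of the 28 adhesion genes tested there 1 was called higher and 6 lower at 1 Hz, beside 3.6% and 21.9% of all genes, and 1 and 8 at 4 Hz, beside 5.9% and 35.9%. With the TMM factor applied to TPM, 5 were higher and 3 lower at 1 Hz, beside 11.6% and 16.3% of all genes, and 5 and 5 at 4 Hz, beside 19.8% and 22.6%. Relative to the median of all genes on log2(TPM + 1), Itgb3 was at 0.98 and 1.05, Lims2 at 0.39 and 0.46, Ptk2 at -0.32 and -0.54 and Pxn at -0.38 and -0.36 at 1 and 4 Hz. Itgb3, Pxn and Itgb2 at both frequencies and Ptk2 at 4 Hz kept their call under every other test, filter and scaling. All of these but Pxn (-0.30 and -0.25) also passed the fold threshold of 0.5.

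**Figure D4:**
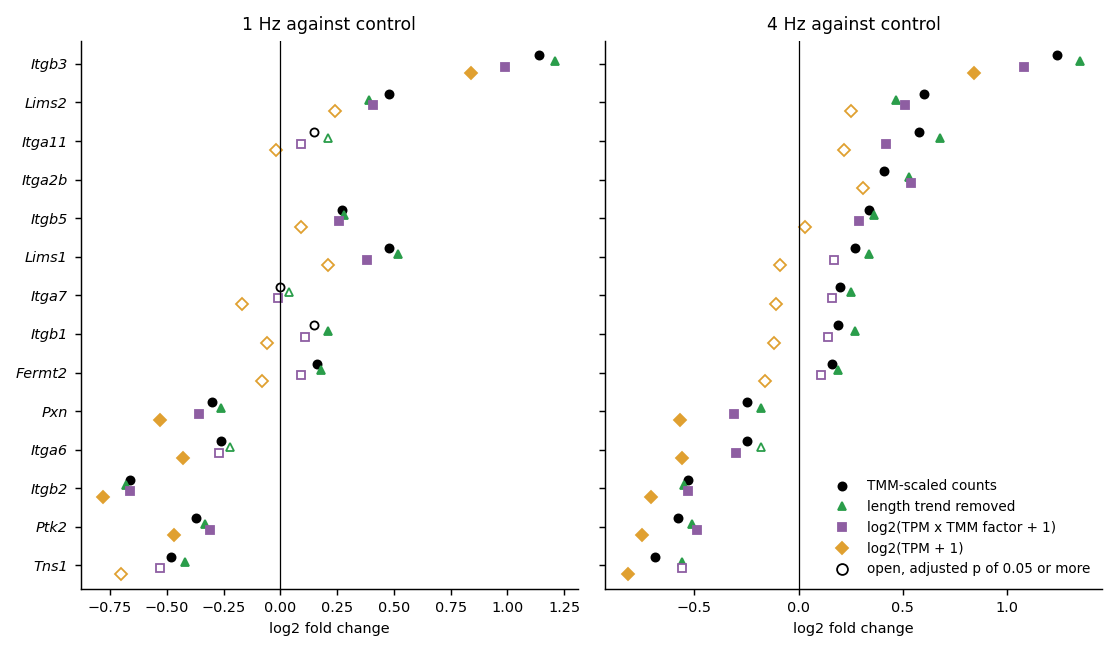
Log2 fold change at 1 Hz (left) and 4 Hz (right) of the 14 genes called at 4 Hz, under 4 treatments of the values; Itga2b is drawn at 4 Hz only, and filled symbols have an adjusted p under 0.05. Itgb3, Itgb2, Ptk2 and Pxn keep their side of 0 under all 4, whereas Lims1, Itga7, Itgb1 and Fermt2 at 4 Hz lie above 0 except on log2(TPM + 1).

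Other genes of the pathway were counted from lists. Of 58 adhesion partners, 55 were tested, and 13 rose and 11 fell at 1 Hz, 14 rose and 18 fell at 4 Hz and 0 were called at 10 Hz. These are 23.6% and 20.0% at 1 Hz, beside 19.2% and 18.1% of all genes, and 25.5% and 32.7% at 4 Hz, beside 27.5% and 23.9%. Tes, a LIM protein partner of zyxin, rose (log2 fold change 0.48 and 0.55 at 1 and 4 Hz, adjusted p = 9.1e-06 and 6.9e-07), as did Kank1, a talin-binding protein (0.47 and 0.76, adjusted p = 3.9e-04 and 5.3e-07), and Cd151, a tetraspanin of laminin-binding integrins (0.26 and 0.42, adjusted p = 0.0027 and 1.0e-05). Crk, the adaptor that binds phosphorylated paxillin, fell (-0.44 and -0.61, adjusted p = 6.7e-04 and 1.0e-05), as did Arhgef7, the beta-PIX exchange factor (-0.49 and -0.57, adjusted p = 9.7e-04 and 1.4e-04), and Actn4, an actin crosslinker (-0.37 and -0.58, adjusted p = 0.0048 and 3.5e-05). These values, and those of single ligand genes below, are from edgeR on TMM-scaled counts. Whether their calls hold under the other settings is not given here.

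Of 46 integrin ligand genes, 36 were tested, and 9 rose and 2 fell at 1 Hz, 10 rose and 3 fell at 4 Hz and 0 were called at 10 Hz. The shares were 25.0% and 5.56% at 1 Hz and 27.8% and 8.33% at 4 Hz, beside the same background. The matricellular ligand Ccn2 rose from a mean of 585 CPM in the controls to 1396 at 1 Hz and 1183 at 4 Hz (log2 fold change 1.25 and 1.02, adjusted p = 4.9e-06 and 3.0e-05). The vitronectin receptor ligand Mfge8 was at 0.29 and 0.39 (adjusted p = 0.0023 and 6.4e-05) and the disintegrin Adam15 at 0.37 and 0.51 (adjusted p = 5.5e-04 and 7.6e-06). Adam12, a disintegrin of fusing myoblasts, fell from 6.67 CPM to 1.77 and 1.49 (-1.96 and -2.17, adjusted p = 1.1e-05 and 2.4e-06). Col1a1, the alpha1 chain of collagen I, was at -0.70 and -0.71 (adjusted p = 0.021 and 0.014). The other collagen I gene, Col1a2, was not called (0.14 and 0.00). Its mean was 404 CPM in the controls, beside 96.8 for Col1a1. Nid1, which joins laminin to collagen IV, fell at 4 Hz (-0.35, adjusted p = 0.030) and was at -0.24 at 1 Hz (adjusted p = 0.15). The medians were 0.15 and 0.13 for the ligands and 0.10 and 0.08 for the partners at 1 and 4 Hz, beside 0.04 and 0.06 for all genes. On log2(TPM + 1) they were -0.05 and -0.18 for the ligands and -0.14 and -0.25 for the partners, beside -0.14 and -0.21 for all genes.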

How the data were processed

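RNA of 24 libraries of the 60-min experiment was measured by sequencing, with 6 biological replicates per group. Per the labels, poly(A) RNA was used, and low-input samples were ribodepleted instead, without saying which. The authors processed the reads with nf-core/rnaseq on GRCm39 with Ensembl annotation, where STAR and salmon are named, and deposited the estimated counts of each gene, summed over transcripts and not normalized. The authors also deposited TPM, divided by transcript length and scaled to 1e+06 per library. The study's methods name a directional library kit. How counting used the strand is not given in the sources used here, and exons of 24 of the 40 genes overlap a gene on the opposite strand. Of the estimated counts, 6.15% were not whole (tolerance 0.001).

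Estimated counts were rounded and tested with edgeR 4.0.16 in R 4.3.3 (filterByExpr, minimum count 10 and minimum total 15, TMM scaling, robust quasi-likelihood F test, two-sided) in 1 fit of all groups. P-values were adjusted by Benjamini-Hochberg over the 13315 genes tested, and genes were called at an adjusted p under 0.05. The biological coefficient of variation was 14.8%, which together with the depth of 8052369 to 18159144 counts per library sets the smallest change that can be seen. CPM were scaled by TMM. The scripts were tested on simulated data. No per-sample column was left unused. Gene positions, lengths and promoters came from GENCODE M39 and GRCm39, where 98.9% of the identifiers and all 40 genes were found. Promoter windows held 250 bases before and 50 after the canonical start. P-values measure the spread between the replicate wells of 1 experiment.

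Alternatives were the size factors of DESeq2, no filter, a stricter filter of 50 counts in at least 6 libraries, a fit of just the 2 groups compared, the replicate number as a block, the Wald test of DESeq2 1.42.0, limma 3.58.1 on log2(TPM + 1) and log2(TPM + 0.1) after a filter (6 libraries with at least 1 TPM), on log2(TPM + 1) without that filter and on TPM times the TMM factor, an offset for the ratio of count to TPM, removal of each library's trend with transcript length (lowess, span 0.3), a fold threshold of 0.5 on the log2 scale and leaving out each library in turn. Leaving out together the 4 libraries with a TMM factor under 0.95 was chosen after seeing the data. Genes were given full values by role: the 2 called genes of smallest p in each role and direction, and the 3 alpha and 3 beta chains of highest TPM. Fermt2 and Itga2b, the other called genes, and the promoters printed were added after their values were seen. From the partner and ligand lists, the 3 called genes of smallest p in each direction were named. The genes, lists and tests were chosen with earlier results of these data known. The 30-min experiment was not analysed here.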

Additional observations from a re-analysis of the deposited data

Results flagged for a closer look

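In 8 of 132 groups of 6 libraries, 1 library lay far from the other 5 by Dixon's ratio at its 95% critical value, where chance gives about 1 in 20 groups. In the controls, Fermt2 was at 357 CPM in replicate 1 beside 375 to 383 CPM in the others, Parva at 88.9 in replicate 2 beside 73.8 to 77.4, and Itga7 at 623 in replicate 3 beside 706 to 751. At 4 Hz, Itgav was at 91.3 CPM in replicate 4 beside 118 to 126, and Itgb2 at 3.06 in replicate 3 beside 3.95 to 4.32. At 10 Hz, Itgb5 was at 125 CPM in replicate 5 beside 114 to 118, Itgb7 at 1.91 in replicate 1 beside 1.03 to 1.35, and Itgb1bp2 at 56.9 in replicate 3 beside 34.5 to 37.5. Of these, the Itga7 call at 4 Hz was lost without its outlying control (adjusted p = 0.068), while the calls of Itgb2 and Fermt2 at 4 Hz held without theirs.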

How the results depend on the processing

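Of 25 calls of adhesion genes against the controls, 7 held under every other test, filter and scaling (5 of them also past the fold threshold), 15 held without each library of the comparison in turn and 20 kept their direction throughout. The numbers higher and lower at 1 Hz (5 and 6) became 1 and 1 with the fold threshold, and 1 gene was higher on log2(TPM + 1), log2(TPM + 0.1) and log2(TPM + 1) without a filter. They became 8 higher with the length trend removed (17.6% of all genes), 3 lower with TPM times the TMM factor, and 9 higher and 3 lower without the 4 libraries of low TMM factor. The numbers at 4 Hz (9 and 5) became 3 and 3 with the fold threshold, 5 higher without a filter (9.8% of all genes) and with TPM times the TMM factor, and 1 higher on the 3 TPM scales, with 8 lower on both filtered ones, while removing the length trend gave 12 higher (24.5% of all genes). The 8 called at 10 Hz against 1 Hz became 3 with the fold threshold and 5 with only the 2 groups or on log2(TPM + 1) without a filter. The 10 at 10 Hz against 4 Hz became 5 with the fold threshold and 6 with TPM times the TMM factor. The shares of all genes in these fits are not given here, so these falls cannot be read as particular to the adhesion genes. Leaving out 1 library gave 4 to 6 higher and 3 to 6 lower at 1 Hz, beside 13.5% to 21.6% and 15.2% to 20.3% of all genes. At 4 Hz it gave 6 to 10 and 4 to 7, beside 22.3% to 27.8% and 21.9% to 26.2%. It gave 0 at 10 Hz and for 4 against 1 Hz, 5 to 8 for 10 against 1 Hz and 7 to 11 for 10 against 4 Hz. For the last 2 ranges the shares of all genes are not given here.

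The replicate numbers did not pair the libraries: same-numbered libraries correlated from -0.33 to 0.24 and 0 libraries correlated best with their own number. With the replicate block, 5 were higher and 3 lower at 1 Hz, beside 17.0% and 17.7% of all genes, and 8 and 4 at 4 Hz, beside 26.3% and 23.6%.

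On the 3 TPM scales some values turned in sign: Lims1 at 4 Hz to -0.09, Itga11 at 1 Hz to -0.02, -0.05 and -0.02, Itga7 at 4 Hz to -0.11, Itga5 at 1 and 4 Hz to -0.06 and -0.25, Itgb1 to -0.06 and -0.12, Fermt2 to -0.08 and -0.16, and Tns1 at 10 Hz to -0.01, -0.02 and -0.01. Tns1 at 10 Hz was also at -0.01 with TPM times the TMM factor. Itga7 at 1 Hz turned to 0.04 with the length offset and with the length trend removed, and Ptk2 at 10 Hz to 0.0043 with the length offset. Leaving out 1 library moved Ptk2 at 10 Hz between -0.07 and 0.0018, Itga7 at 1 Hz between -0.06 and 0.04, Tns1 at 10 Hz between -0.04 and 0.13 and Itgb1 at 10 Hz between -0.05 and 0.02. The cause was not tested. Depth limits the chains of low level: the 7 genes not tested had at most 123 counts in all.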
